A study of Mus musculus with 8 samples.

Results

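Prex2, B3gat2 and Tmem51 are 3 of the 20741 genes counted in RNA of the mouse suprachiasmatic nucleus (SCN). They were selected on their sense gene counts by circadian time, as little-known genes with a night peak among the 17 whose 24-h rhythm was called. The same counts give that rhythm, so the 24-h values of these genes are given as a description and carry no test. A night peak described Prex2, which was highest at CT16 and CT22. B3gat2 and Tmem51 were highest at CT22 and next highest at CT4, so their peak lay at the turn from subjective night to subjective day.

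The series asked how the circadian clock regulates RNA in the SCN, the pacemaker of the hypothalamus. C57/BL6 mice were kept on 12 h of light and 12 h of dark for 3 weeks and then moved to constant darkness, which all groups share. RNA of 3 mice was pooled for each of 8 polyadenylated RNA libraries taken every 6 h. The groups are CT4 and CT10 (circadian time in hours, subjective day) and CT16 and CT22 (subjective night), with 2 libraries each, 1 from the first cycle in darkness and 1 from the second. No genotype or drug differs between the groups, and age is not given in the labels. The labels do not say that both libraries of a time are replicates, and they name CT18 as the start of collection although the first library is titled CT22. Sense-strand gene reads numbered between 11123610 and 11131890 in a library. The 15 SCN neuron markers were all detected, with a summed level of 1992 to 3091 CPM, the unit of level used here, which is reads scaled to a common library size.

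In the clock of SCN neurons, CLOCK and BMAL1 (encoded by Arntl) drive Per, Cry and Rev-erb genes through E-boxes, and the products of these genes feed back on the same loop. Prex2 encodes a guanine nucleotide exchange factor that activates the small GTPase Rac in response to the lipid PIP3 and to G protein beta-gamma subunits. B3gat2 encodes a glucuronyltransferase that adds the glucuronic acid of the HNK-1 carbohydrate, a sugar epitope on neural adhesion molecules and receptors. Tmem51 encodes a transmembrane protein of little-known function.

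On mm9, Prex2 (ENSMUSG00000048960) spans chr1:10983502-11294360 on the plus strand. B3gat2 (ENSMUSG00000026156) spans chr1:23768542-23856402 on the plus strand. Tmem51 (ENSMUSG00000040616) spans chr4:141586797-141640243 on the minus strand. The 60 bases across the last splice junction of each gene are shown because most exon reads of all 3 genes fell in the exon behind it. Lower case marks the last 30 bases of the exon before the junction and capitals the first 30 bases of the terminal exon, all coding, read 5′ to 3′ from the GENCODE vM21 transcripts (GRCm38).
Prex2: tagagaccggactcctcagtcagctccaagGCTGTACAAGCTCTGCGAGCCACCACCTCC
B3gat2: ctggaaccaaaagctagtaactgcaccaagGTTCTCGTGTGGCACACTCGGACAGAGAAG
Tmem51: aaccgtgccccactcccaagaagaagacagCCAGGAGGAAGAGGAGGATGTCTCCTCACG
On GRCm38 the Prex2 stretches lie at chr1:11289291-11289320 and chr1:11297708-11297737 (plus strand), on either side of an intron of 8387 bases. The B3gat2 stretches lie at chr1:23844992-23845021 and chr1:23845101-23845130 (plus strand), with an intron of only 79 bases between them. The Tmem51 stretches lie at chr4:142037405-142037434 and chr4:142032065-142032094 (minus strand), with an intron of 5310 bases.

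Prex2 RNA was higher in the subjective night than in the subjective day in both cycles. Its level was 51.2 and 53.4 CPM at CT4, 48.5 and 55.1 CPM at CT10, 86.9 and 80.5 CPM at CT16, and 76.5 and 76.7 CPM at CT22, in the first-cycle and the second-cycle library of each time. Every night library lay above every day library. The means were 52.3 ± 1.56 CPM at CT4, 51.8 ± 4.69 at CT10, 83.7 ± 4.52 at CT16 and 76.6 ± 0.12 at CT22 (SD, n = 2 each). In order, CT16 stood above CT22 and CT22 above CT4 without overlap, whereas CT4 and CT10 overlapped. The highest mean was 1.61 times the lowest. A 24-h cosine fitted by edgeR peaked at CT18.6 ± 0.546 h (SE), with a peak-to-trough ratio of 1.84 (log2 0.88 ± 0.13).

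B3gat2 RNA, with the highest mean CPM of the 3, was highest at CT22 and lowest at CT10. It had 110 and 118 CPM at CT4, 73.5 and 79.8 CPM at CT10, 91.9 and 96.4 CPM at CT16, and 118 and 155 CPM at CT22. The means were 114 ± 6.13 CPM at CT4, 76.6 ± 4.44 at CT10, 94.2 ± 3.18 at CT16 and 136 ± 26.5 at CT22 (SD, n = 2 each). CT22 and CT4 overlapped, since the first-cycle CT22 library lay just below the second-cycle CT4 library. CT4 stood above CT16, and CT16 above CT10, without overlap. The highest mean was 1.78 times the lowest, and the second-cycle CT22 library was the highest, with 1705 reads. The fitted peak was at CT23.2 ± 0.581 h with a ratio of 1.83 (log2 0.87 ± 0.13, SE).

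Tmem51, the gene with the fewest reads, had the widest swing. It was counted with 158 and 134 reads at CT4, 78 and 54 at CT10, 100 and 76 at CT16, and 169 and 222 at CT22. This gave 13.1 ± 1.50 CPM at CT4, 5.89 ± 1.47 at CT10, 7.96 ± 1.65 at CT16 and 17.6 ± 3.57 at CT22 (SD, n = 2 each). CT22 stood above CT4 and CT4 above CT16 without overlap, while CT16 and CT10 overlapped. The highest mean was 3.0 times the lowest. The fitted peak was at CT23.6 ± 0.579 h with a ratio of 3.33 (log2 1.74 ± 0.27, SE), and leaving out any 1 library moved the log2 ratio between 1.58 and 1.92.

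**Figure D1:**
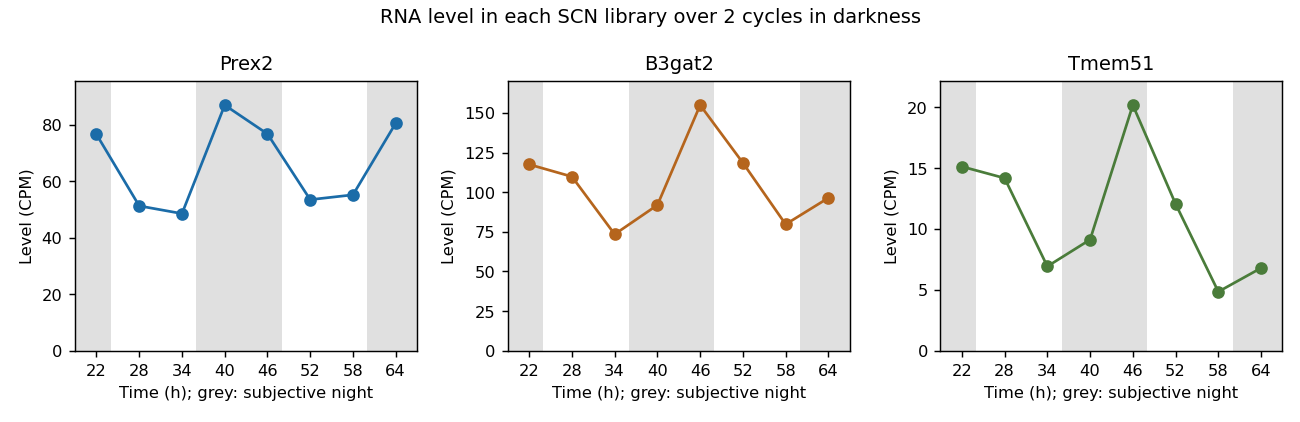
Level (CPM, linear axis from 0) of each gene in each of the 8 libraries against circadian hours from 22 to 64, with the subjective night in grey; each point is 1 pool of 3 mice. Prex2 was at 76.5 CPM or above in all 4 night libraries, while within each cycle of 4 libraries B3gat2 and Tmem51 were highest at 22 h or 46 h and lowest at 34 h or 58 h.

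Taken by cycle, the swing of each gene had a somewhat different size in the second cycle. Both cycles entered the rhythm that chose the genes, so a swing in each of them is no independent support. For Prex2 the highest level was 1.51 times the lowest in the second cycle and 1.79 times in the first, with the maximum at CT16 in both. For B3gat2 CT22 exceeded CT10 by 1.94 times in the second cycle and by 1.60 times in the first. For Tmem51 the same ratio was 4.16 in the second cycle and 2.18 in the first, and its CT10 library held 54 reads in the second cycle and 78 in the first. Each cycle is 1 library per time, so the difference in size between cycles has no replicate check.

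All 3 genes were among the 17 of 15217 tested genes, or 0.112%, whose 24-h rhythm passed an adjusted p of 0.05 by edgeR, and nothing is read from that count because the rhythm chose them. Ordered by p, Prex2 stood at place 11, Tmem51 at 14 and B3gat2 at 15. The last gene inside the threshold, Hspa1b at place 17, had a peak-to-trough ratio of 10.7, and the first outside, Cirbp at place 18, had 1.69. In mean level B3gat2 ranked 2371 of 15217, Prex2 3973 and Tmem51 10204. The authors' deposited table gave a peak lag of 19 h for Prex2 and 1 h for both B3gat2 and Tmem51, from a rhythm test run with JTK.

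Against clock genes of known phase, Prex2 peaked before Arntl and the other pair after it. Arntl, which encodes BMAL1, had a fitted peak at CT21.4 ± 0.904 h, although its rhythm did not pass here (edgeR adjusted p = 0.319). The repressor gene Nr1d1 peaked at CT4.89 (adjusted p = 0.00834), Per1 at CT6.79 (0.00323), the output gene Dbp at CT7.46 (0.000317) and Per2 at CT8.80 (0.00495), all by edgeR. The Tmem51 ratio of 3.33 was close to the 3.12 of Dbp, while Prex2 and B3gat2 at 1.84 and 1.83 stood between Arntl at 1.58 and Nr1d1 at 2.12.

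**Figure D2:**
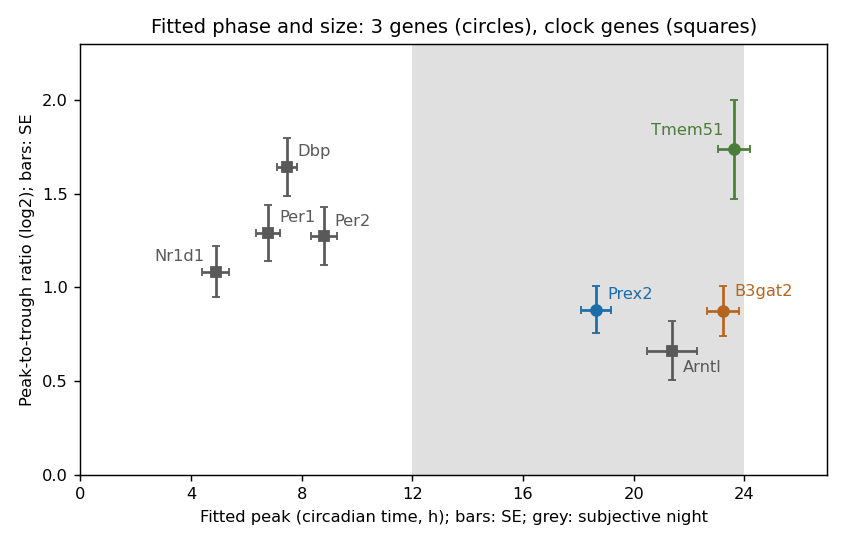
Peak-to-trough ratio (log2) against fitted peak (circadian time in hours) from the 24-h cosine over 8 libraries, with bars for SE and the subjective night in grey; circles are the 3 genes and squares 5 clock genes. Prex2 lies at CT18.6 and B3gat2 and Tmem51 at CT23.2 and CT23.6, while Nr1d1, Per1, Dbp and Per2 lie between CT4.89 and CT8.80.

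B3gat2 and Tmem51 moved together across libraries and Prex2 followed another course. Over the 8 libraries the log2 CPM of B3gat2 and Tmem51 correlated with a Pearson r of 0.90, against 0.35 for Prex2 and B3gat2 and 0.23 for Prex2 and Tmem51. These are descriptions over libraries that share their sampling times and their scaling. Among 11898 genes with a mean of at least 5 CPM, the course most like that of Prex2 belonged to Bpnt1 (r = 0.97), Wwc1 (0.97), Ubtf (0.96), Nr2f1 (0.96) and Rbm12b (0.96). Their own ratios ran from 1.17 for Bpnt1, which encodes a nucleotide phosphatase, to 1.70 for Rbm12b. The course of B3gat2 was most like those of Ddx6 (r = 0.97), Marcks (0.97), Suv420h1 (Kmt5b, 0.96), Mut (0.96) and Gsbs (Ppp1r17, 0.96). Ddx6 encodes an RNA helicase and had a ratio of 1.17, and Gsbs, which encodes a phosphatase inhibitor, had 1.49. Genes with a course like that of Tmem51 included Sept11 (r = 0.98, listed under a symbol turned into a date), Zfp618 (0.98), Scyl2 (0.97) and Cacna1e (0.97). Cacna1e, which encodes a voltage-gated calcium channel subunit, had a ratio of 1.36, against 3.33 for Tmem51 itself.

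A further contrast asked for a 12-h component, CT4 and CT16 against CT10 and CT22. The 24-h test that chose the genes counts this difference as residual spread, so the choice favours genes where it is small. A small value for these genes may follow from the choice and is no independent result. By edgeR none of the 3 genes passed. Prex2 averaged 68.0 ± 18.3 CPM at CT4 and CT16 and 64.2 ± 14.6 CPM at CT10 and CT22 (SD, n = 4 each), a log2 difference of 0.07 ± 0.09 (SE, adjusted p = 0.887). B3gat2 differed by 0.02 ± 0.10 on the log2 scale (adjusted p = 0.980), with 104 ± 12.2 CPM at CT4 and CT16 and 106 ± 37.7 CPM at CT10 and CT22. Tmem51 differed by 0.0027 ± 0.19 (adjusted p = 0.998), with 10.5 ± 3.24 CPM at CT4 and CT16 and 11.8 ± 7.15 CPM at CT10 and CT22. For both genes the fitted difference is slightly positive although the mean CPM at CT4 and CT16 is the lower one. Across the genome 0% of 15217 genes passed by edgeR (1137 at an unadjusted p under 0.05), and 8 passed by DESeq2. Libraries 6 h apart miss a 12-h rhythm whose peaks lie midway between the sampled times and understate one that peaks off them.

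The mean level of the 3 genes over the day was also compared between the second and the first cycle in darkness. The 24-h test counts this difference too as residual spread, so a small value for the chosen genes is no independent result. Prex2 averaged 66.4 ± 14.1 CPM in the second cycle and 65.8 ± 18.9 CPM in the first (SD, n = 4 each), a log2 difference of 0.03 ± 0.09 (SE, edgeR adjusted p = 0.999). B3gat2 averaged 112 ± 32.5 CPM in the second cycle and 98.2 ± 19.7 CPM in the first, a log2 difference of 0.17 ± 0.09 (adjusted p = 0.999). It was higher in the second cycle at all 4 times. Tmem51 averaged 10.97 ± 6.85 CPM in the second cycle and 11.34 ± 3.95 CPM in the first, a log2 difference of -0.16 ± 0.19 (adjusted p = 0.999). Its second-cycle library was lower at 3 of the 4 times and higher at CT22. Leaving out 1 library moved the difference from -0.34 (without CT22 replicate 1) to -0.095 (without CT10 replicate 2), replicates being numbered by cycle. No gene of the 15217 passed (0%) by edgeR, with 543 at an unadjusted p under 0.05, and 0 passed by DESeq2.

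Reads along the Prex2 transcript were concentrated in its terminal exon. Of 6026 reads over 36 exons that do not overlap, 5575 or 92.5% fell in the terminal exon (mm9 chr1:11287789-11294360, 6572 bases). In the GENCODE model that exon has 5974 bases, or 54.0% of the transcript. Of its bases there, 99.2% lie after the stop codon and only 46 are coding or stop, among them the 30 capitals shown above. The terminal exon held 848 reads per kb over the 8 libraries, against 63.2 reads per kb over the other 35 exons, a ratio of 13.4. That ratio depends on the exon forms, since the longest of overlapping forms was kept. Of the 7135 bases of the other exons, 2317 belong to 1 long form with 6 reads. A form of 149 bases at the same place also had 6 reads, so shorter forms would give a smaller ratio. Among 5347 genes with at least 10 exons and 1000 exon reads, the median share of the exon with most reads was 37.7%, and 182 genes (3.40%) had a share as high as that of Prex2. Few Prex2 reads crossed a splice junction, 3.30 per 100 exon reads against a median of 27.2, and its last junction had 9 reads in all 8 libraries together. Density was uneven over the other exons and mostly higher toward the 3′ end. It was 13.9 and 8.13 reads per kb in exons 1 and 2, and 194 to 403 in exons 30 to 35. Why the upstream exons are sparse was not tested.

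The terminal exon therefore carries the Prex2 values by time. It had 553 and 559 reads at CT4, 515 and 599 at CT10, 891 and 842 at CT16, and 794 and 822 at CT22. The night libraries together had 3349 reads and the day libraries 2226, a ratio of 1.50. The other 35 exons had 274 reads in the night libraries and 177 in the day libraries, a ratio of 1.55, but their libraries overlapped. They had 50 and 31 reads at CT4, 71 and 25 at CT10, 50 and 74 at CT16, and 80 and 70 at CT22. Of these 35 exons, 21 were at 0 in at least 4 libraries. The exon counts come from the same reads as the gene counts and are no second measurement.

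B3gat2 reads also lay mainly in the terminal exon, though spliced reads were frequent. The terminal exon (mm9 chr1:23851940-23856402, 4463 bases) held 8610 of 9785 exon reads, or 88.0%. In the GENCODE model this exon has 4058 bases, of which 97.9% lie after the stop codon. It makes up 71.8% of that transcript, so much of its share of reads goes with its length. The terminal exon had 1115 and 1205 reads at CT4, 779 and 787 at CT10, 927 and 944 at CT16, and 1157 and 1696 at CT22. Per kb the short exon before it, of 149 bases, was denser at 4302 reads per kb, against 1929 in the terminal exon. A read could count for more than 1 exon, which raises reads per kb most in short exons. The junction over the intron of 79 bases shown above had 467 reads. By time it had 64 and 49 reads at CT4, 37 and 39 at CT10, 58 and 62 at CT16, and 75 and 83 at CT22, so the CT22 libraries were highest and the CT10 libraries lowest. The junction before it (mm9 chr1:23822205-23851711, 219 reads) was highest at CT4 and CT22, with 39 and 33 reads at CT4 and 38 and 33 at CT22. It was low at CT10 with 16 and 28 reads and at CT16 with 11 and 21, so its lowest library was at CT16. Reads of CT22 and CT4 exceeded those of CT10 and CT16 by 1.51 times in the terminal exon and by 1.44 times in the other 3 exons.

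Tmem51 reads lay almost wholly in the last 2 of its 3 exons, and the first exon had 20 of 1069. The terminal exon (mm9 chr4:141586797-141588009, 1213 bases) held 790 exon reads, or 73.9%, at 1.86 times the density of the other exons. In the GENCODE model it has 1103 bases, or 58.8% of the transcript, and 409 of them are coding or stop. It had 137 and 102 reads at CT4, 66 and 50 at CT10, 82 and 42 at CT16, and 133 and 178 at CT22. CT22 and CT4 exceeded CT10 and CT16 by 2.29 times there and by 2.13 times in the other 2 exons. Compared per length of terminal exon, mean read density was 241 reads per kb and library for B3gat2, 106 for Prex2 and 81.4 for Tmem51.

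**Figure D3:**
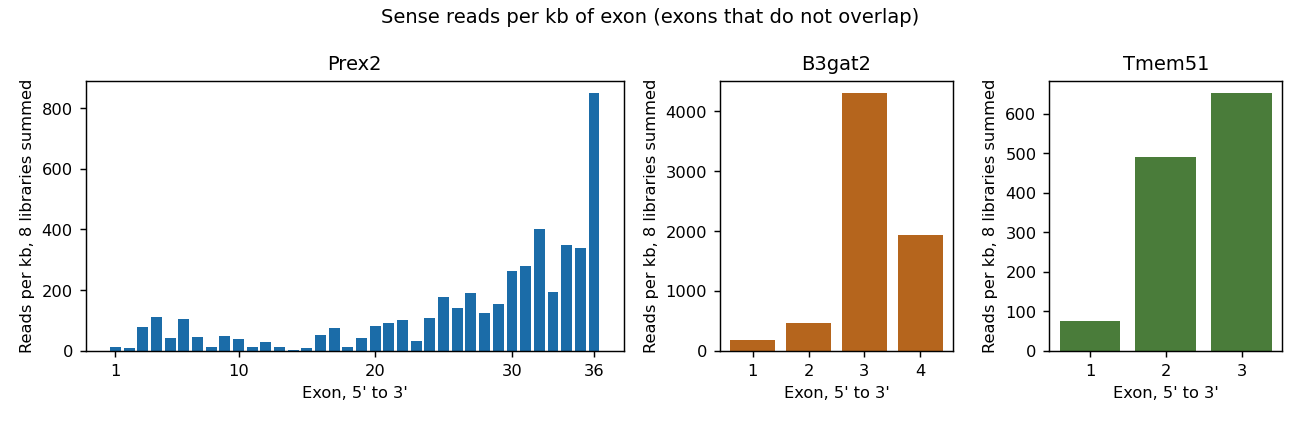
Sense reads per kb of exon, summed over the 8 libraries, in exons that do not overlap, ordered 5′ to 3′ (bars from 0, a separate axis for each gene). The last Prex2 exon stands at 848 reads per kb, the B3gat2 exon before the last at 4302, and the last Tmem51 exon at 651.

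Intron reads, which include RNA not yet spliced, were most like the gene counts for Tmem51 and least like them for Prex2. Tmem51 introns had 58 and 43 reads at CT4, 10 and 16 at CT10, 27 and 23 at CT16, and 26 and 47 at CT22. CT4 stood above CT10 and CT16 without overlap but overlapped CT22, and the CT10 libraries were lowest. The fitted peak of the introns was at CT0.544 ± 1.08 h with a ratio of 3.31 (SE of log2, 0.50), against CT23.6 and 3.33 for the gene. B3gat2 introns had 84 and 84 reads at CT4, 72 and 71 at CT10, 105 and 79 at CT16, and 100 and 104 at CT22, a fitted ratio of 1.46 with a peak at CT21.0 ± 1.83 h. Summed, they were lowest at CT10, as was the gene, but CT16 overlapped both CT4 and CT22. Of their 699 reads, 107 lay at mm9 chr1:23769099-23769606, inside the first exon as counted here (mm9 chr1:23768635-23770067). These reads may come from spliced RNA, and they numbered 4 and 9 at CT10 and 28 and 12 at CT22. In the intron with most reads (486) the lowest library was at CT16, with 92 and 46 reads there and 48 and 52 at CT10. Prex2 introns had 5 and 10 reads at CT4, 22 and 13 at CT10, 7 and 2 at CT16, and 9 and 9 at CT22, at most 22 reads. Their highest time was CT10, where the gene was lowest, and the fitted peak at CT8.02 ± 2.86 h rests on 77 reads in all.

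On the 12-h and the cycle term, no intron count of the 3 genes passed by edgeR. For the 12-h component Tmem51 introns averaged 3.40 ± 1.43 CPM at CT4 and CT16 and 2.23 ± 1.48 CPM at CT10 and CT22 (SD, n = 4 each), a log2 difference of 0.71 ± 0.33 (SE, adjusted p = 0.951). Prex2 introns differed by -1.09 ± 0.62 (adjusted p = 0.959) and B3gat2 introns by 0.05 ± 0.19 (adjusted p = 0.996). Between the second and the first cycle the log2 differences were -0.33 ± 0.65 for Prex2, -0.09 ± 0.19 for B3gat2 and 0.08 ± 0.35 for Tmem51 (edgeR adjusted p = 1 each). Over the 14140 genes with enough intron reads, 0% passed either term by edgeR, with 726 for the 12-h component and 628 for the cycle at an unadjusted p under 0.05.

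B3gat2 was the only one of the 3 genes with enough reads on its opposite strand to be tested. Counted per gene, Prex2 had 0 to 6 such reads per library and Tmem51 0 to 1. Counted by exon, the Prex2 terminal exon had 0 to 12 per library (29 in all). Counted by intron, the last Tmem51 intron (mm9 chr4:141588010-141593319) had 0 to 12 (42 in all). The B3gat2 span had 265 and 239 opposite-strand reads at CT4, 513 and 266 at CT10, 339 and 263 at CT16, and 197 and 247 at CT22. The first-cycle CT10 library was highest, the same library in which the sense strand was lowest with 827 reads, but the second-cycle CT10 library lay among the others. Counted by exon, the B3gat2 terminal exon had 517 and 536 opposite-strand reads at CT4 and 704 and 552 at CT10. It had 625 and 495 at CT16, and 439 and 486 at CT22. There the first-cycle CT10 library was again highest, but it stood less far above the next, the first-cycle CT16 library. The last 4769 bases of B3gat2 (mm9 chr1:23851634-23856402), which include its terminal exon, are shared with Smap1, a gene on the opposite strand. Smap1 encodes a GTPase-activating protein for Arf6 and kept between 65.4 and 73.8 CPM in all libraries, with a 24-h ratio of 1.07 (edgeR adjusted p = 0.917). The strand setting of the counting is not given in the sources used here, so reads of B3gat2, Smap1 and any antisense RNA in the shared stretch cannot be told apart with certainty.

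The opposite-strand reads of B3gat2 passed neither test by edgeR. They averaged 22.8 ± 1.08 CPM in the second cycle and 29.5 ± 12.0 CPM in the first (SD, n = 4 each), a log2 difference of -0.28 ± 0.24 (SE, adjusted p = 0.755). The 12-h component was -0.09 ± 0.29 (adjusted p = 1). With the scaling factors of the opposite-strand table itself the log2 differences were -0.47 for the cycle and -0.26 for the 12-h component. Of 3693 genes tested on the opposite strand 0% passed either term, with 193 for the cycle and 37 for the 12-h component at an unadjusted p under 0.05. Depth was equalised separately for each strand before deposit, so the share of opposite-strand reads cannot be compared between libraries.

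**Figure D4:**
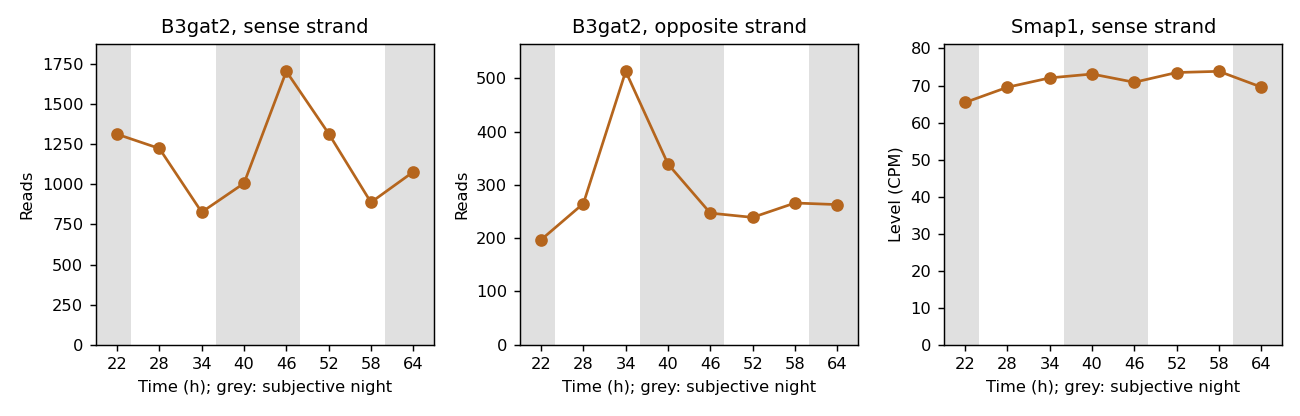
Reads on the sense strand of B3gat2 (left), reads on its opposite strand (middle) and level of Smap1 in CPM (right) in each of the 8 libraries against circadian hours, with the subjective night in grey and axes from 0. Counted per gene, the opposite strand is highest at 34 h with 513 reads and otherwise between 197 and 339. Smap1 stays between 65.4 and 73.8 CPM.

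The promoter window of Tmem51 is shown because a second transcript with a like course starts beside it. RefSeq places it at chr4:142084255-142084554 on the minus strand of GRCm38.p6, from 250 bases before to 50 after the start, and the 93 capitals at its end lie inside the window of the neighbouring gene Tmem51os1 as well.
Tmem51: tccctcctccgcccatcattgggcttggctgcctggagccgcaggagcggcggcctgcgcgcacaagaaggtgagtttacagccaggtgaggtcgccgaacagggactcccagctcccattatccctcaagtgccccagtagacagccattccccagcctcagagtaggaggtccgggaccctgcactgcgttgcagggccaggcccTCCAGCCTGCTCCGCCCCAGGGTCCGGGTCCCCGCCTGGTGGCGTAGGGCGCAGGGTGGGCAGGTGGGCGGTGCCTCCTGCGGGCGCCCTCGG
This window has 69.7% G and C, against a median of 52.7% over 32851 windows of the same length. Searched on both strands, it held no E-box (CACGTG, in 7.15% of all windows), no E′-box (CACGTT, 4.68%), no D-box (TTATGTAA or TTACGTAA, 1.06%), no ROR response element (RRE, 0.219%) and no CRE (TGACGTCA, 1.79%). The GC box (GGGCGG, 35.7% of windows) matched 3 times. These letters describe the window and say nothing of which factors bind there. Some spliced Tmem51 reads joined the second exon to a point upstream of the first exon as counted here. That junction (mm9 chr4:141593849-141640399) had 11 reads, against 20 for the junction from the first exon (mm9 chr4:141593849-141639976). Part of the window before the RefSeq start may therefore itself be transcribed.

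Tmem51os1 is listed as Gm10565 (mm9 chr4:141639711-141644142) and shares 533 bases with the start of Tmem51. It had 6 and 13 reads at CT4, 2 and 1 at CT10, 4 and 2 at CT16, and 20 and 8 at CT22. CT22 and CT4 were high and CT10 and CT16 low, as for Tmem51, at a level of at most 1.79 CPM. Its fitted peak at CT23.9 lay beside that of Tmem51 at CT23.6, but its rhythm did not pass (edgeR adjusted p = 0.422). Where the 2 genes overlap, their reads cannot be told apart with certainty.

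Of the 6 nearest tested neighbours none had a called 24-h rhythm by edgeR, with 1 (Gm10565) at an unadjusted p under 0.05, and none by DESeq2. With 0.112% of all genes called, a count of 0 among 6 says nothing particular of these neighbours. Next to Prex2, Arfgef1 had a ratio of 1.12 (edgeR adjusted p = 0.827) and A830018L16Rik 1.06 (0.974). Next to B3gat2, Ogfrl1 had a ratio of 1.24 (edgeR adjusted p = 0.602). Next to Tmem51, Fhad1 had a ratio of 1.15 (edgeR adjusted p = 0.916).

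The genes around Prex2 in its pathway were listed beside it. Of 27 tested genes of Rac and PIP3 signalling, 0 passed by edgeR and by DESeq2, and 1 had an unadjusted p under 0.05. Over all 15217 genes 0.112% passed and 1308 had an unadjusted p under 0.05, so a count of 0 among 27 is near the background. Their median peak-to-trough ratio was 1.14, against 1.23 over all 15217 genes and 1.84 for Prex2. The lowest p belonged to Pik3r3, a regulatory subunit of PI3 kinase, with 130 and 146 CPM at CT4, 112 and 120 at CT10, 145 and 114 at CT16, and 140 and 203 at CT22 (ratio 1.49, adjusted p = 0.420). Others with a low p were Inppl1, a PIP3 phosphatase (ratio 1.28, edgeR adjusted p = 0.621), the kinase subunit Pik3cb (1.29, 0.663) and the kinase Akt2 (1.21, 0.697). Prex1, the closest relative of Prex2, was looked up after values were known. It had 113 to 157 CPM with a ratio of 1.11 (edgeR adjusted p = 0.879).

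The genes that make or carry the product of B3gat2 were listed in the same way. Of 18 tested genes that make or carry HNK-1, 0 passed the 24-h test by edgeR and by DESeq2, and 2 had an unadjusted p under 0.05. These counts too are near the background of 0.112% passing and 1308 of 15217 at an unadjusted p under 0.05. Their median ratio was 1.18, against 1.23 over all genes and 1.83 for B3gat2. The 2 were Mag, a myelin glycoprotein with a ratio of 2.16 and a peak at CT13.0 (edgeR adjusted p = 0.436), and Ugdh, which makes the UDP-glucuronic acid that B3gat2 uses (ratio 1.38, peak CT18.1, adjusted p = 0.436). Mag is also on the list of oligodendrocyte markers described below. Gria2, a glutamate receptor subunit, had a ratio of 1.36 (edgeR adjusted p = 0.595), Ptprz1 1.21 (0.622) and the adhesion molecule L1cam 1.20 (0.668). The related glucuronyltransferases, looked up after values were known, had ratios of 1.11 for B3gat1 (edgeR adjusted p = 0.808) and 1.23 for B3gat3 (0.718).

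Markers of several cell classes differed along the same axis as B3gat2 and Tmem51. In these bulk libraries fewer cells of a type and less RNA per cell cannot be told apart. Between dusk (CT10 and CT16) and dawn (CT22 and CT4), B3gat2 differed by -0.55 and Tmem51 by -1.15 on the log2 scale, and Prex2 by 0.06. Over all 15217 tested genes 7819 were higher at dusk, with a median log2 difference of 0.006. By the 24-h test of edgeR 17 of them (0.112%) were called and 1308 had an unadjusted p under 0.05. Of 15 markers of SCN neurons, none was higher at dusk, with a median log2 difference of -0.48 and 2 called by the 24-h test. Their summed level was 1992 to 2544 CPM at dusk and 2488 to 3091 CPM at dawn. Several of these markers are themselves clock-controlled in the SCN, and their part in the values of B3gat2 and Tmem51 was not tested. Of 12 oligodendrocyte markers, 12 were higher at dusk, with a median of 0.60 and 0 called by edgeR (12 at an unadjusted p under 0.05). Their summed level was 8192 to 15960 CPM at dusk and 5097 to 10516 CPM at dawn. With the oligodendrocyte score as a term in the fit the log2 ratios were 0.91 for Prex2, 0.90 for B3gat2 and 1.63 for Tmem51, and the peaks CT18.3, CT23.3 and CT23.4. Markers of other glia and of meninges were also mostly higher at dusk. They were so in 7 of 7 oligodendrocyte precursor genes (median log2 difference 0.19), 9 of 10 microglia genes (0.25) and 7 of 8 meninges genes (0.50). Of 11 astrocyte markers 8 were higher at dusk with a median of only 0.076, while Aldh1l1, Slc1a3 and Slc1a2 were slightly lower. In these lists 0 genes were called by edgeR, with 1 or 2 of each at an unadjusted p under 0.05. The summed meninges level was 287 CPM in CT4 replicate 1, against 1100 to 2194 CPM in the other libraries. Without that library the log2 ratio was 0.89 for B3gat2 and 1.71 for Tmem51. The part of these classes in the values of the 3 genes was not tested. Of neighbouring nuclei, magnocellular markers summed to 159 to 324 CPM. Arcuate markers were low, with 14.0 to 84.6 CPM summed over the tested members of the arcuate list, of whose 6 markers Agrp and Kiss1 had too few reads to be tested. The highest arcuate sum was that of CT10 replicate 1, which had 51.7 CPM of Pomc, against at most 11.5 CPM in the other libraries. Without that library the log2 ratio was 0.81 for Prex2, 0.83 for B3gat2 and 1.92 for Tmem51. The tested thalamic and telencephalic markers summed to 63.1 to 110 CPM, and 7 of 8 were tested. Endothelial markers summed to 208 to 243 CPM in the 8 libraries.

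**Figure D5:**
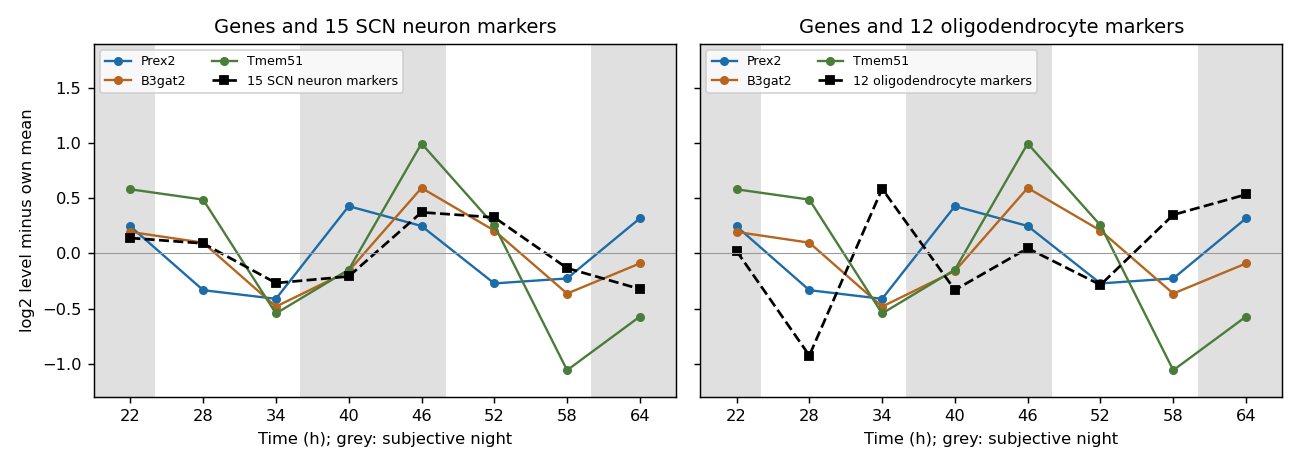
Log2 CPM of each gene minus its own mean (coloured) and the mean of the same quantity over 15 SCN neuron markers (left, dashed) or 12 oligodendrocyte markers (right, dashed) in the 8 libraries against circadian hours, with the subjective night in grey. The SCN neuron score runs from -0.32 to 0.37 and is highest at 46 h, where B3gat2 and Tmem51 are highest, while the oligodendrocyte score is lowest at 28 h with -0.93.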

How the data were processed

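SCN RNA was measured in 8 libraries, each a pool of 3 mice. Alignment used STAR 2.3.0e and mm9, per the submitters' processing notes. The authors deposited whole-number counts for genes on both strands, for introns, for exons and for splice junctions. Which tool counted them, and with which strand setting, is not given in the sources used here. Totals within a table were nearly equal between libraries except for junctions, so depth had been equalised table by table for the others. Per library there were 11123610 to 11131890 sense gene reads, 149603 to 149800 antisense, 4196931 to 4199146 intron and 25232810 to 25232813 exon reads. Junction reads numbered 3196136 to 3437120 per library and are given here unscaled. Exon totals exceed gene totals, so a read could count for more than 1 exon. The authors' lag in hours, a score from a JTK rhythm test per the file headers, was only quoted.

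The test was the quasi-likelihood F test of edgeR 4.0.16 (R 4.3.3) after TMM scaling, with at least 10 reads in at least 2 libraries, and Benjamini-Hochberg adjustment at 0.05 over all tested features. The model had a day-night and a dusk-dawn term, which together are a 24-h cosine. A 12-h term and a term for the second against the first cycle were tested beside them. Standard errors of peaks are by the delta method. CPM are counts over effective library sizes. Introns and antisense reads used those of the sense genes, with 125063 of 167257 introns kept as not overlapping one another. An intron could still lie inside a longer exon form. The coefficient of variation shared by all features (edgeR) was 0.143 in genes, 0.178 in introns and 0.431 in antisense genes. The tests were tried on simulated counts.

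A group was the 2 libraries of 1 circadian time, a cycle apart and numbered here by cycle, so p-values measure spread between pooled libraries. The 3 genes and all lists were chosen with earlier results of these data known. Named genes were the 3, the 5 most correlated with each (log2 CPM, prior count 2), the nearest tested neighbours, the 5 lowest p of each pathway list and 5 clock genes; others are marked. Some genes that this rule names are not reported here. Alternatives were DESeq2 1.42.0, no scaling, no filter, scaling factors of the antisense table itself, a cycle or oligodendrocyte term, intron or exon counts, and leaving out each library. Sequences came from GENCODE vM21 and RefSeq, which held the promoter of 1 of the 3 genes. Matching of last junctions between builds was by intron length. The table of gene names matched 19628 gene IDs.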

Additional observations from a re-analysis of the deposited data

How the results depend on the processing

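Leaving out 1 library moved the count of genes with a called 24-h rhythm between 7 and 43 (7 without CT10 replicate 2, 8 without CT10 replicate 1, 43 without CT16 replicate 1), against 17 with all libraries, 362 with no filter and 98 by DESeq2. With no filter 1 gene of Rac and PIP3 signalling (Pik3r3) and 1 of the HNK-1 list (Mag) were called, and the HNK-1 count was 0 to 1 over the libraries left out (1 without CT16 replicate 1). From introns the log2 ratio was 1.19 for Prex2 and 0.54 for B3gat2, with peaks at a circadian time of 8.02 h for Prex2, 21.0 h for B3gat2 and 0.544 h for Tmem51; the cause was not tested. The 12-h difference of Tmem51 became -0.0038 without scaling and -0.0042 with the cycle term. Over the libraries left out, the 12-h log2 difference ran from -0.063 to 0.129 for B3gat2, from -0.11 to 0.14 for Tmem51 and from -0.070 to 0.150 for B3gat2 introns. The cycle difference ran from -0.036 to 0.082 for Prex2, from -0.84 to 0.16 for its introns, from -0.15 to 0.0086 for B3gat2 introns and from -0.24 to 0.52 for Tmem51 introns, none of them called. The peaks from gene counts ran from CT18.3 to CT18.9 for Prex2, from CT23.1 to CT23.5 for B3gat2 and from CT23.3 to CT24.0 for Tmem51. Of the values computed, 237 stayed the same, 13 moved further and 17 changed sign. Tested differences stayed the same if they kept their direction and their side of the threshold, and counts of genes if within a set fold. Log2 ratios had to move by less than the spread between libraries, and peaks by less than their SE. No paired analysis was possible because the replicate numbers only name the cycle and pair no samples; the fit with the cycle term is the nearest to one. Depth limits the Prex2 introns and upstream exons most, with 77 and 451 reads in all.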
